A study of Homo sapiens with 6 samples.

Results

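The genes described here are the protein-coding genes whose bodies lie wholly between positions 57000000 and 58000000 of human chromosome 12 (GRCh38), a stretch of 12q13-q14 that holds GLI1 and CDK4, with MBD6 left out. By GENCODE 44 they number 39 of 20046 protein-coding genes. With them are described all DDX5 RIP-seq peaks whose summit lies in the same 1 Mb, also those in MBD6 or between genes, which came to 176 of 23715 peaks in replicate 1, 194 of 23651 in replicate 2 and 286 of 45832 in replicate 3. RNA immunoprecipitation sequencing (RIP-seq) recovers the RNA bound to a protein by means of an antibody. Here the starting material was the nuclear extract of RH30, a cell line from an alveolar rhabdomyosarcoma that carries the PAX3-FOXO1 fusion, and RNA was recovered with an antibody to the RNA helicase DDX5 in 3 samples (DDX5_IP) and none in 3 INPUT samples, all of the same single line. The series' design calls the replicates biological, and nothing says that they came from separate cultures, so p-values describe only how far these samples agree. Peak lists of the 3 DDX5_IP samples were analysed, and INPUT files were not analysed here.

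DDX5 is a DEAD-box helicase that unwinds RNA and takes part in transcription, splicing and microRNA processing. GLI1 is the transcription factor at the end of the hedgehog pathway, in which PTCH1 restrains SMO and SUFU restrains the GLI proteins, and CDK4 is the kinase that, with D cyclins, phosphorylates RB at the start of the cell cycle. The 12q13-q14 segment with both genes is a known site of amplification in alveolar rhabdomyosarcoma and liposarcoma. Copy number was not measured in the files used here.

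The sequences at the summits of well supported regions are shown first, to give the reference sequence there. A region is a run of overlapping peaks, and each of the 7 below was found in every list. They were chosen in order of the peaks' mean rank by q-value within the lists, 1 for each gene, in coding sequence or intron. Each is the summit with 50 bases on either side, in the list where the region ranked highest, from the GRCh38 reference, written 5′ to 3′ on the gene's strand. The GLI1, LRP1, PIP4K2C and B4GALNT1 windows hold the summits of all 3 lists. Those of NXPH4 and SHMT2 hold the summits of 2 lists, and that of MARCHF9 of 1. Capitals mark runs of at least 3 G.

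GLI1, chr12:57471046-57471146, plus strand: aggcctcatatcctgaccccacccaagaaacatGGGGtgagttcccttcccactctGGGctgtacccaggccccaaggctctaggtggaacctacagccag
NXPH4, chr12:57223007-57223107, plus strand: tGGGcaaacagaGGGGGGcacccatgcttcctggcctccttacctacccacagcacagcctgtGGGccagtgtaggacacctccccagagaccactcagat
LRP1, chr12:57159169-57159269, plus strand: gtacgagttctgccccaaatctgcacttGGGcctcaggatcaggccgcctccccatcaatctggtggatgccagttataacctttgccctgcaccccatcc
PIP4K2C, chr12:57591329-57591429, plus strand: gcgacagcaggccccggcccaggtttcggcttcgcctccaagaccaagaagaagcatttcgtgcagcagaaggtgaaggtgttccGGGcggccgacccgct
SHMT2, chr12:57230848-57230948, plus strand: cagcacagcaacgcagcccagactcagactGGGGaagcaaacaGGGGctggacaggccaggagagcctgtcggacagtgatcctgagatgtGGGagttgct
MARCHF9, chr12:57756986-57757086, plus strand: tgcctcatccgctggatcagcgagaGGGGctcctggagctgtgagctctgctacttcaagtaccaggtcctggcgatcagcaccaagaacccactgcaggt
B4GALNT1, chr12:57630201-57630301, minus strand: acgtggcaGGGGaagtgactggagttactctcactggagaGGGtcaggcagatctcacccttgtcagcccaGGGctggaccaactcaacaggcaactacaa

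The summits of the GLI1, PIP4K2C, SHMT2, MARCHF9 and B4GALNT1 windows lie in coding sequence, and those of NXPH4 and LRP1 in introns. The MARCHF9 window runs just past the end of exon 2 of its main transcript, at position 57757084. Features were read at the summit. The GC content of the windows ran between 56.4% in B4GALNT1 and 64.4% in PIP4K2C. The GLI1 window holds 2 runs of at least 3 G, the NXPH4, SHMT2 and B4GALNT1 windows hold 3, and the other windows hold 1. None of the 7 windows matched, on either strand, the letters of a G-quadruplex motif, 4 runs of at least 3 G with 1 to 7 bases between them. A match or its absence describes these letters alone. Over all peaks of the locus, 5.44% ± 1.15 of summit windows held the motif, against 1.82% ± 0.48 in the flanks and 1.41% ± 0.12 over all peaks (SD, n = 3 lists). GC content at the summits averaged 55.3% ± 0.73 in the locus, against 48.3% ± 1.37 in the flanks and 46.9% ± 1.05 over all peaks (SD, n = 3 lists). Coding sequence of the locus is itself rich in GC. Windows of the same length stepped every 50 bases through its coding bases had a mean GC content of 57.5% and held the motif in 4.02%, against 53.7% and 2.15% in the lower flank. Coding summits of the locus had a GC content of 58.6% ± 0.44 and held the motif in 5.34% ± 1.56 (SD, n = 3 lists). By list the motif share was 5.05%, 3.95% and 7.02%, which lies on both sides of the share in the coding windows.

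Among bins of 1 Mb set end to end along the genome, the locus held the most peaks in every list. It held 176, 194 and 286 peaks in replicates 1, 2 and 3, against 121, 127 and 208 in the 2 Mb of its flanks together. Among bins with at least 1 peak it ranked 1 of 1976, 1 of 2125 and 1 of 2208, where the median bin held 8, 7 and 14 peaks. Peak density averaged 219 ± 59.0 peaks per Mb in the locus and 76.0 ± 24.3 in the flanks (SD, n = 3 lists), a log2 ratio of 1.54 ± 0.08, higher in the locus in 3 of 3 lists. The exact two-sided sign-flip permutation test over the 3 lists gave p = 0.25, the smallest p that 3 lists allow, and 0.25 after adjustment over 4 tests. The lower flank is the closer match in gene content, with 204.7 kb of exon against 208.1 kb in the locus, and beside it alone the log2 ratio was 0.92. The upper flank has 18.9 kb of exon, and beside it alone the ratio was 2.66.

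**Figure D1:**
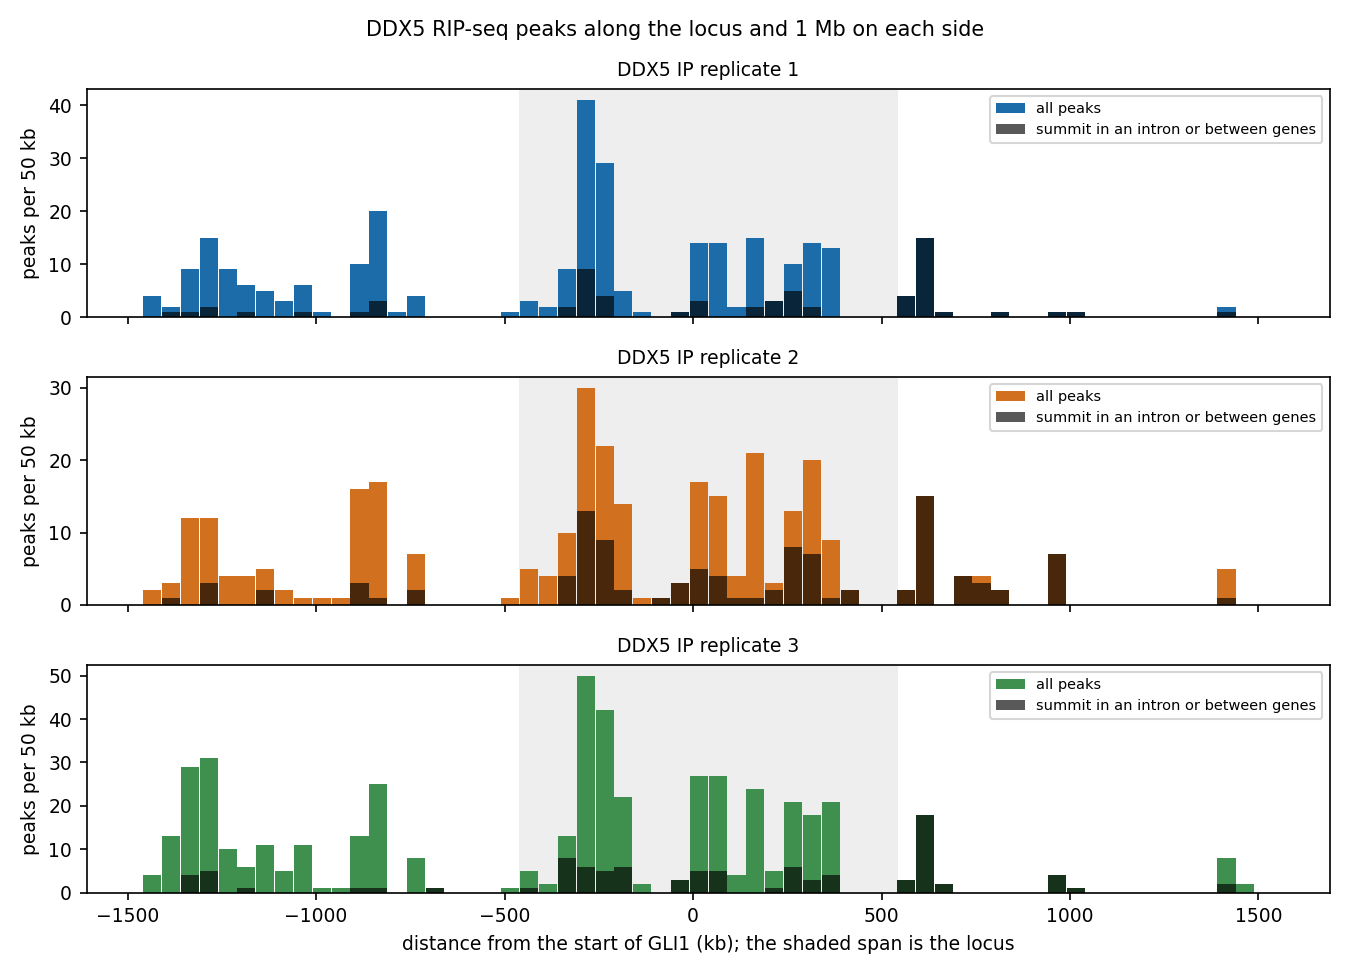
Peaks per 50 kb window (y axis) against the distance from the start of GLI1 in kb (x axis), in the 3 DDX5_IP lists from top to bottom, with peaks whose summit lies in an intron or between genes in dark. The highest windows of each list lie in the shaded locus, over LRP1, and the locus ends in a stretch with few or no peaks in every list.

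Scaled to exon length, the contrast with the flanks was smaller. Exonic peaks numbered 0.697, 0.630 and 1.12 per exonic kb in the locus, against 0.389, 0.362 and 0.738 in the flanks. The mean was 0.815 ± 0.266 in the locus and 0.496 ± 0.210 in the flanks, a log2 ratio of 0.74 ± 0.13 (SD, n = 3 lists, exact sign-flip p = 0.25, adjusted p = 0.25). Among the 377 bins of 1 Mb with at least 100 kb of exon, the locus ranked 1 in every list. LRP1 carried a large share of this. Without its body the locus held 109, 148 and 204 peaks. By number of peaks it then ranked 2, 1 and 2 among all bins with a peak, and its rank by exonic peaks per exonic kb was not taken. The log2 ratios to the flanks were 1.01 for density and 0.40 for exonic peaks. Among peaks of at least 4-fold enrichment, the log2 ratio of exonic peaks was 0.13 (exact sign-flip p = 0.5).

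Most peaks of the locus lay in exons. Coding sequence held 56.3%, 39.2% and 59.8% of the locus peaks in replicates 1, 2 and 3, against 34.7%, 29.1% and 53.4% in the flanks and 37.6%, 27.5% and 49.9% over all peaks. Untranslated 3′ ends held 20.5%, 19.6% and 13.6% in the locus, against 33.1%, 27.6% and 17.8% in the flanks and 41.9%, 29.2% and 24.6% over all peaks. In each list the locus thus had a larger coding share and a smaller 3′ UTR share than the flanks together and the list as a whole. Beside the lower flank alone, where coding sequence held 42.7%, 39.8% and 60.6%, the coding share was higher in the locus in replicate 1 only.

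**Figure D2:**
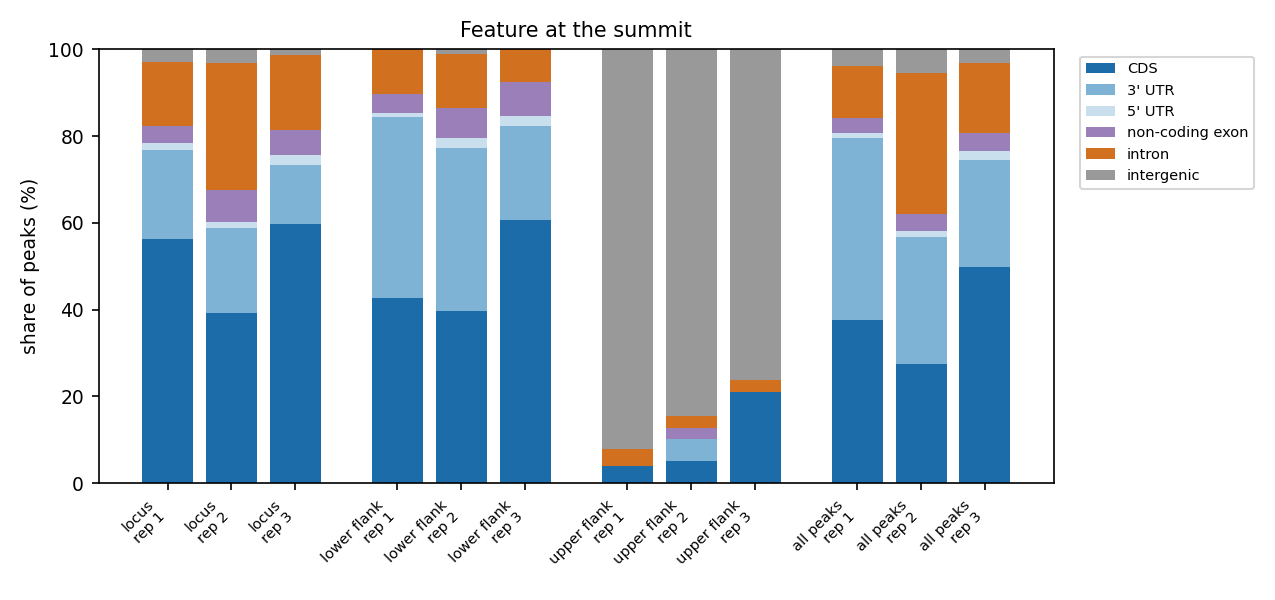
Share of peaks in percent (y axis) by the feature at the summit, for the locus, the lower flank, the upper flank and all peaks, with 1 bar for each DDX5_IP list. Coding sequence is the largest class in every bar of the locus, and peaks between genes make up most of the upper flank.

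Introns held 14.8%, 29.4% and 17.1% of the locus peaks, against 9.09%, 9.45% and 6.73% in the flanks and 11.9%, 32.7% and 16.3% over all peaks. The intronic share was 12.01 ± 7.26 points higher in the locus than in the flanks (SD, n = 3 lists, exact sign-flip p = 0.25, adjusted p = 0.25). Beside the whole lists it was higher in replicates 1 and 3 and lower in replicate 2.

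Locus peaks recurred between lists more often than flank peaks. Those lying in a region found in every list made up 68.2%, 59.8% and 38.5% of the locus peaks, against 54.5%, 49.6% and 29.8% in the flanks, and 40.4%, 39% and 19.2% of all peaks. The difference from the flanks was 10.8 ± 2.55 points (SD, n = 3 lists, exact sign-flip p = 0.25, adjusted p = 0.25). In the lower flank alone the share was 58.3%, 58.0% and 30.6%, so that replicate 2 differed little, and the mean difference was 6.52 ± 4.17 points. Among peaks of at least 4-fold enrichment the difference from the flanks was 7.34 ± 11.6 points (exact sign-flip p = 0.5), and the lists did not all agree in direction. By regions, 98 of 310 in the locus (31.6%) were found in every list, against 57 of 263 in the flanks (21.7%) and 13.6% of the 60437 regions of the genome. Regions were classed by the peak of highest −log10 q in each list. Of the 98, 39 had these summits in coding sequence in all lists, 20 in a 3′ UTR and 9 in an intron, and LRP1 alone was given 32.

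Peaks of the locus had a lower median enrichment but a higher median −log10 q than the whole of each list. The deposited fold enrichment over the caller's background had a median of 2.16, 2.67 and 2.65 in the locus, against 2.71, 2.82 and 2.79 in the flanks and 2.66, 3.21 and 2.91 over all peaks. The median −log10 q was 4.91, 6.28 and 7.94 in the locus, against 4.34, 6.39 and 5.96 in the flanks and 4.57, 5.13 and 5.56 over all peaks. Locus peaks were also wider, with a median of 223, 239 and 239 bp against 183, 206 and 184 bp in the flanks and 174, 194 and 188 bp over all peaks. These values are the authors' own for each peak and serve here to describe and rank peaks within a list. Some peaks carry exactly the fold and p of at least 10 peaks in their list, themselves included, and these made up 27.3%, 19.1% and 31.1% in the locus, against 47.1%, 34.6% and 59.1% in the flanks and 53.7%, 61.0% and 68.0% over all peaks.

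Of the 39 genes, 21 had a peak of their own in every list (53.8%), where 21.3% of all protein-coding genes did. Leaving aside genes without any peak, the share was 21 of 28 (75%) in the locus, where it was 47.6% over all such genes. A peak counts as a gene's own when its summit lies in the exon, or failing that the body, of that gene alone. Genes of this locus overlap closely and the library kit did not keep strand, so 18, 30 and 37 peaks fell in several gene bodies and were given to none. With such summits counted for every gene that holds them, 30 of the 39 had one in every list, where the background share was 25.7%. In every list at a q-value under 1e-05 were 14 of the 39, where 12.4% of all protein-coding genes were. In every list at 4-fold or more were LRP1, NXPH4, GLI1, MARS1 and PIP4K2C, where the share over all such genes was 3.34%.

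Across the 21 genes the best peak was less enriched than is usual, and peaks were more closely packed. The mean best fold enrichment had a median of 2.81 over the 21 genes and 3.65 over the 4279 protein-coding genes that the 3 lists had in common. The lower median did not hold along the whole locus. It was 2.10 over the 7 genes between TSPAN31 and CTDSP2 and 4.03, above 3.65, over the other 14. Exonic peaks per exonic kb had a median of 0.950 over the 21 genes and 0.479 over the 4279. The percentile of the best −log10 q within its list had a median of 74.8 over the 21 and 59.2 over the 4279. These are descriptions of the group and carry no test.

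**Figure D3:**
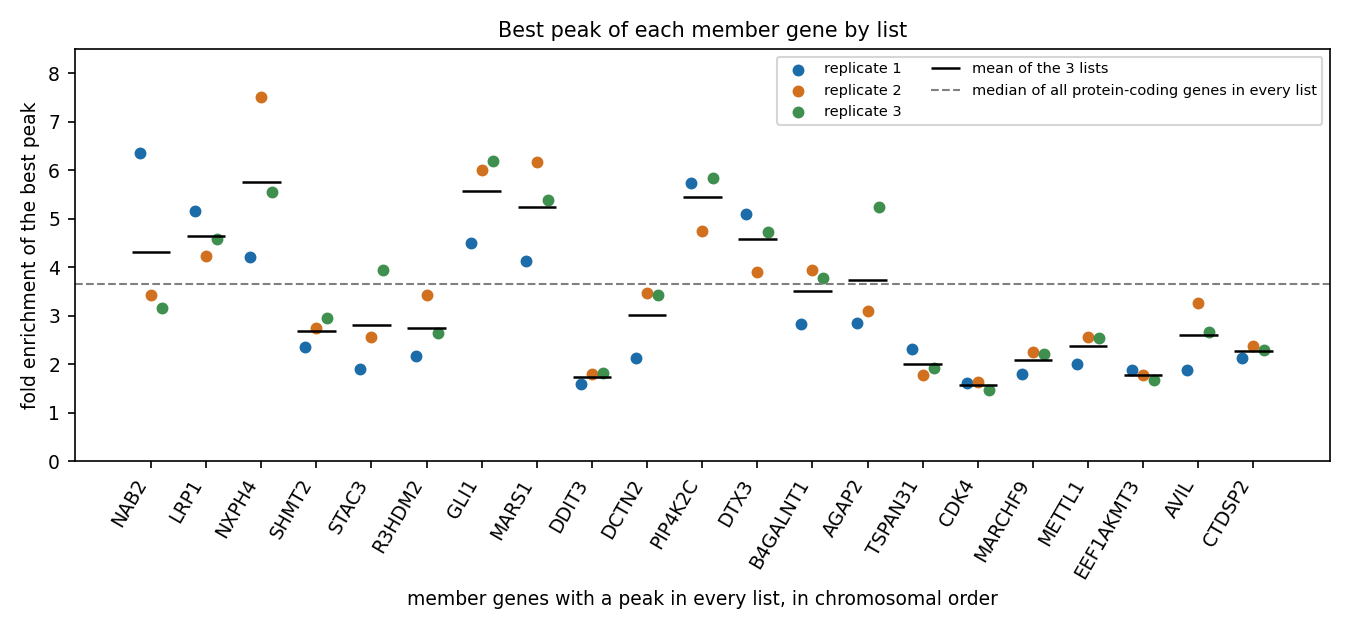
Fold enrichment of the best peak (y axis) of the 21 genes with a peak in every list, in chromosomal order, with a point for each DDX5_IP list, a line at the mean and a dashed line at 3.65, the median over the 4279 protein-coding genes that the lists had in common. The genes between TSPAN31 and CTDSP2, on the right, all have means below the dashed line.

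Of 5 genes placed by hand under transcription, R3HDM2 included, 4 had a peak in every list. The share was 53.8% over all 39 genes and 21.3% over all protein-coding genes. The counts of this and the groups below are small, are read beside these shares and set no group apart. GLI1 had the highest mean percentile of best −log10 q of the 39 genes. Its best −log10 q was 21.4, 35.8 and 48.3, while that of LRP1 in replicate 1 was 40.6 and that of NXPH4 in replicate 2 was 43.7. GLI1 (chr12:57459785-57472268, plus strand) had 7, 9 and 13 peaks, with a best fold enrichment of 4.50, 6.02 and 6.19 (5.57 ± 0.93, SD, n = 3 lists). The best peak lay in the coding part of exon 12, the last exon, in each list, at summits within 39 bases of each other. Its region, chr12:57470361-57472223, is 1863 bp long and is the source of the GLI1 sequence above. By the mean percentile of −log10 q, 98.2, GLI1 ranked 21 of the 4279 genes. Exons 4, 9 and 12 held a summit in every list, and 5 regions of GLI1 were found in every list, 1 of them, chr12:57468964-57469257, within an intron.

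NAB2 (chr12:57089043-57095476), a corepressor of EGR transcription factors, had 2, 4 and 2 peaks with a best fold of 6.37, 3.44 and 3.17. The best peak of replicate 1 lay in coding sequence of exon 2, and those of replicates 2 and 3 lay in the 3′ UTR in exon 7, so the highest value does not refer to the same site. R3HDM2 (chr12:57253762-57431043), which encodes an R3H domain protein, had 3, 5 and 8 peaks with a best fold of 2.18, 3.43 and 2.66, all in the 3′ UTR of exon 24. A further 2, 11 and 14 summits in R3HDM2 also lay in the overlapping readthrough gene ENSG00000258830 and were given to neither. DDIT3 (chr12:57516588-57521737), a stress-induced transcription factor known as CHOP, had 2 peaks in each list with a best fold of 1.60, 1.79 and 1.81. Its mean of 1.74 ± 0.12 ranked 4269 of 4279. STAT6, the transcription factor of interleukin-4 signalling, had no peak of its own, and 1, 2 and 3 summits in its body lay in a neighbouring gene as well.

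CDK4 stood at the other end of the locus from GLI1 in strength. CDK4 (chr12:57747727-57756013, minus strand) had 1, 3 and 1 peaks, with a best fold of 1.61, 1.64 and 1.48 and a −log10 q of 4.33, 3.75 and 2.2. The mean best fold of 1.58 ± 0.09 was the lowest of the 4279 genes, and no list held a CDK4 peak with q under 1e-05. The site was the same in the 3 lists, in the coding part of exon 2, with summits within 56 bases of each other in the region chr12:57751494-57751769. CDK4 thus had a single recurrent site of low enrichment, where GLI1 had several.

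**Figure D4:**
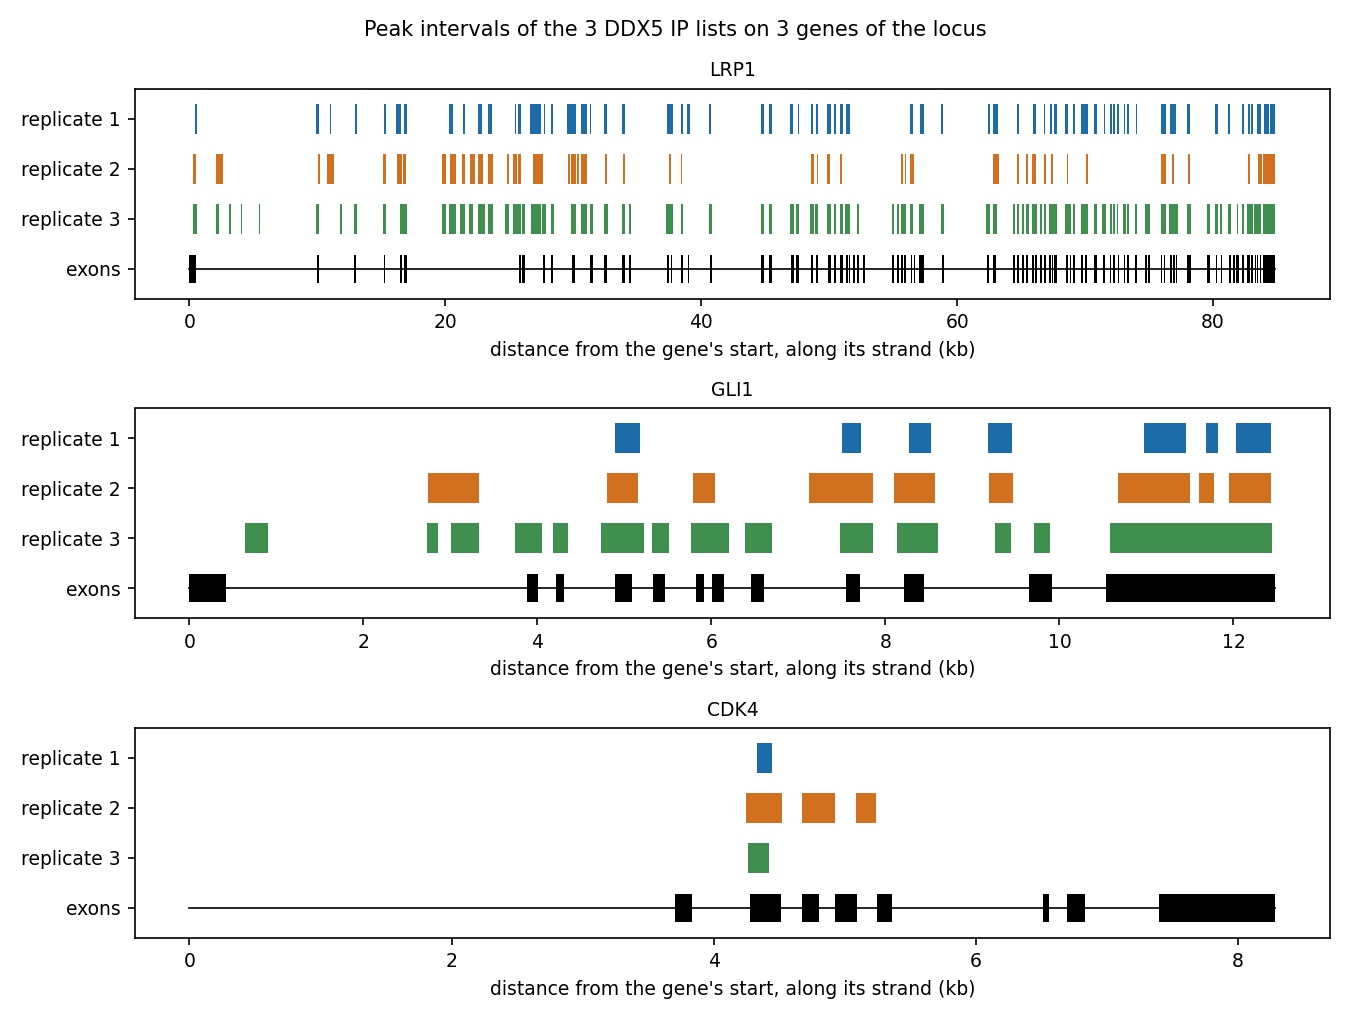
Peak intervals of the 3 DDX5_IP lists (rows) on LRP1, GLI1 and CDK4, against the distance from the gene's start along its strand in kb (x axis), with the exons of the main transcript in black. LRP1 is covered along its length, GLI1 has its widest intervals over the last exon, and CDK4 has 1 interval in common between the lists, over exon 2.

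The other 6 genes of cell cycle and growth differed widely, and 4 of them had a peak in every list. PIP4K2C (chr12:57591174-57603418), a lipid kinase, had 6, 8 and 9 peaks with a best fold of 5.75, 4.75 and 5.85 (5.45 ± 0.61). The best peaks lay at 3 different sites, in exon 1, exon 10 and exon 4, and the exon 1 site, shown above, was 5.75-, 5.00- and 3.81-fold enriched. With 2.12 ± 0.61 exonic peaks per exonic kb it ranked 24 of 4279. CTDSP2 (chr12:57819927-57846729), a small phosphatase of the RNA polymerase II tail, had 9, 7 and 11 peaks with a best fold of 2.12, 2.39 and 2.30. Its peaks were many and of low enrichment, and 5 regions were found in every list.

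AGAP2 (chr12:57723761-57742157), a GTPase-activating protein of ARF proteins, had 1, 5 and 10 peaks with a best fold of 2.85, 3.11 and 5.24. The lists disagreed on their number and on the feature at the summit. The single peak of replicate 1 was coding and the 5 peaks of replicate 2 were intronic. The best peaks of the 3 lists overlapped all the same, in the 1 AGAP2 region found in every list, with summits within 348 bases of each other. TSPAN31 (chr12:57738013-57750219), a tetraspanin gene that overlaps CDK4 on the other strand, had 4, 1 and 3 peaks with a best fold of 2.31, 1.78 and 1.93, and none of its regions was found in every list. ARHGEF25, a guanine nucleotide exchange factor, had 3 peaks of its own in replicate 3 alone. A further 4, 7 and 6 summits in the ARHGEF25 body lay in neighbouring genes as well. ARHGAP9, a GTPase-activating protein, had no peak of its own, and 2, 1 and 1 summits in its body lay in a neighbouring gene as well.

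LRP1, the endocytic receptor for lipoproteins and proteases, held more peaks than any other gene of the locus. LRP1 (chr12:57128483-57213361, plus strand) had 65, 44 and 79 peaks, which is 36.9%, 22.7% and 27.6% of all peaks in the locus. It ranked 3 of 4279 genes by number of peaks and 10 by exonic peaks per exonic kb, at 2.30 ± 0.99. Of the 89 exons of its main transcript, 49, 24 and 66 held a summit, 74 in at least 1 list and 18 in every list. The first, middle and last parts of equal length held 13, 21 and 31 peaks in replicate 1, 15, 15 and 14 in replicate 2, and 18, 25 and 36 in replicate 3. Peaks were thus spread along the whole gene, more densely toward its end in replicates 1 and 3 and evenly in replicate 2.

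The best LRP1 peak had a fold of 5.17, 4.23 and 4.58. In replicates 1 and 2 it lay at the same base of an intron, within the LRP1 sequence above, and in replicate 3 in the coding part of exon 26. The intronic region was also present in replicate 3, at 2.38-fold. Classed by the peak of highest −log10 q in each list, 17 of the 32 regions found in every list with LRP1 the only gene given were coding in every list. Of these 32, 4 were intronic in every list and 8 coding or intronic by list. Their length had a median of 420.5 bp, between 155 and 1264 bp.

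LRP1 also hosts MIR1228, a microRNA gene at chr12:57194504-57194576 that fills the intron between exons 49 and 50. Exon 49, next to it, held a summit in every list. MIR1228 was overlapped by 1 peak in every list, and was the 1 of 5 microRNA genes of the locus for which this was so. The share over all microRNA genes is not given here. MIR6758 was overlapped in 1 list, and MIR616, MIR6759 and MIR26A2 in none. An overlap does not separate the microRNA from the LRP1 RNA that contains it. Its mature forms, from RefSeq (GRCh38.p14), are shown with the seed, bases 2 to 8, in capitals.

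hsa-miR-1228-5p: gUGGGCGGgggcaggugugug
hsa-miR-1228-3p: uCACACCUgccucgcccccc

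Of the 11 genes for receptors, ligands and membrane proteins, LRP1 included, 6 had a peak in every list, a share near the 53.8% of all 39 genes. NXPH4 (chr12:57216794-57226449), a secreted neurexophilin, had 2, 5 and 4 peaks with a best fold of 4.21, 7.52 and 5.56, with a mean of 5.77 ± 1.66. Without replicate 2 the mean was 4.89. Both of its regions found in every list were outside coding sequence, 1 in the intron shown above and 1 in the 3′ UTR. B4GALNT1 (chr12:57623409-57633239), the synthase of gangliosides GM2 and GD2, had 4, 6 and 7 peaks with a best fold of 2.83, 3.94 and 3.78. Its percentile of −log10 q, 92.6, was the third highest of the 39 genes. DTX3 (chr12:57604622-57609804), a ubiquitin ligase of the deltex family, had 1, 2 and 2 peaks with a best fold of 5.09, 3.90 and 4.74, in the 3′ UTR of exon 7 each time.

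STAC3 (chr12:57243453-57251188), a protein of excitation-contraction coupling in skeletal muscle, had 3, 4 and 7 peaks with a best fold of 1.91, 2.57 and 3.95. Its 1.91 ± 0.83 exonic peaks per exonic kb ranked 50 of 4279. MARCHF9 (chr12:57755103-57760411), a membrane ubiquitin ligase, had 6, 5 and 6 peaks with a best fold of 1.81, 2.27 and 2.22, and all 6 peaks of replicate 1 lay in regions found in every list. OS9 (chr12:57693841-57728342), a lectin of endoplasmic reticulum quality control, had no peak of its own in replicate 1, and 2 and 7 in replicates 2 and 3, while 4, 4 and 7 further summits in its body lay in neighbouring genes as well. The ligand genes INHBC, with peaks in 2 lists, and INHBE, with peaks in 1, encode inhibin beta subunits. TAC3, the gene of neurokinin B, and NEMP1, a nuclear envelope protein, had no summit in any list.

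All 4 genes for translation and RNA had peaks, 3 of them in every list. MARS1 (chr12:57475445-57517569), the cytosolic methionyl-tRNA synthetase, had 7, 6 and 15 peaks with a best fold of 4.14, 6.18 and 5.39 (5.24 ± 1.03). The best peak was in the same region, chr12:57488071-57488521, in each list. METTL1 (chr12:57768471-57772119), which methylates guanosine in tRNA, had 3, 3 and 4 peaks with a best fold of 2.01, 2.56 and 2.54, in an intron in replicates 1 and 2. EEF1AKMT3 (chr12:57771492-57782541), a lysine methyltransferase of eEF1A, had 2, 3 and 4 peaks with a best fold of 1.89, 1.79 and 1.68, each in the 3′ UTR, and ranked 4264 of 4279 by mean fold. TSFM, a mitochondrial elongation factor, had no peak of its own in replicate 1 and 1 in each of replicates 2 and 3, at 2.11- and 2.46-fold. A further 3, 1 and 6 summits in the TSFM body lay in neighbouring genes as well.

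Among 4 metabolic genes 1 had a peak in every list, and among 4 genes of the cytoskeleton and its motors 2 did. SHMT2 (chr12:57229573-57234935), the mitochondrial serine hydroxymethyltransferase, had 7, 5 and 8 peaks with a best fold of 2.35, 2.75 and 2.95. NDUFA4L2 had peaks in 2 lists, CYP27B1 in 1 and ATP23 in none. DCTN2 (chr12:57529633-57547224), a dynactin subunit, had 3, 3 and 9 peaks with a best fold of 2.14, 3.48 and 3.43, yet none lay in a region found in every list. AVIL (chr12:57797376-57818734), an actin-binding protein, had 3, 1 and 7 peaks with a best fold of 1.90, 3.27 and 2.68. KIF5A, a kinesin heavy chain, and MYO1A, a myosin, had no peak of their own, as did the genes listed as ENSG00000258830, ENSG00000285133, ENSG00000287908 and ENSG00000257921. Summits in the bodies of KIF5A and of the genes listed by identifier lay in neighbouring genes as well.

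Enrichment differed along the locus. The 7 genes between TSPAN31 and CTDSP2 with a peak in every list (chr12:57738013-57846729), which include CDK4, had mean best folds between 1.58 and 2.61 with a median of 2.10, against 1.74 to 5.77 with a median of 4.03 for the other 14. Over all peaks of that stretch the median fold was 1.87, 1.90 and 1.97, against 2.30, 2.97 and 2.86 in the rest of the locus. The share of peaks found in every list was 62.5%, 59.4% and 47.7% in the stretch, against 69.4%, 59.9% and 36.8% in the rest. The stretch was chosen after its values were seen and is given as a description without a test.

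Few peaks of the locus lay between genes, 5, 6 and 4. These made up 2.84%, 3.09% and 1.40% of its peaks, against 3.88%, 5.38% and 3.09% over all peaks. The lower flank held 0, 1 and 0 such peaks and the upper flank 23, 33 and 29. A region found in every list had its summits just past the end of MARCHF9, 474, 233 and 507 bp beyond it. In this region the intervals of replicates 1 and 2 did not overlap each other, and that of replicate 3 joined them. Beyond the last summit, at positions 57846406, 57860226 and 57848766, no summit followed for 200.5, 187.5 and 195.6 kb. Peaks then resumed outside the locus in a run between genes, with 19, 17 and 21 peaks in its first 100 kb above position 58000000, of which 9, 11 and 9 lay in regions found in every list. Their median fold was 2.12, 2.17 and 2.18. At the lower border ZBTB39 (chr12:56998836-57006546), which straddles the boundary and so is no member, had 4, 6 and 6 peaks with a best fold of 1.87, 5.50 and 4.01. GPR182, RDH16 and SDR9C7, just below it, had none.

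Genes that act with GLI1 and CDK4 but lie elsewhere also carried peaks. Of 21 hedgehog pathway genes, 11 had a peak in every list (52.4%), where 21.3% of all protein-coding genes did. Among hedgehog genes with any peak it was 11 of 15, where the share over all such genes was 47.6%. PTCH1, the hedgehog receptor, had 13, 19 and 25 peaks with a best fold of 3.93, 4.99 and 3.02. SUFU, the inhibitor of GLI proteins, had a best fold of 4.06, 4.08 and 6.97, and GLI2 of 3.33, 3.89 and 9.91. SHH, IHH, DHH, GLI3 and STK36 were among those with no peak. Of 18 genes of the CDK4 and RB pathway, 13 had a peak in every list (72.2%), beside the same 21.3%. Among those with any peak it was 13 of 17, beside the same 47.6%. CCND2, a D cyclin, had a best fold of 1.73, 1.95 and 1.75, and RB1 of 2.02, 2.61 and 2.04. E2F1 had a best fold of 5.05, 3.53 and 3.49. Of 22 genes further along 12q, around MDM2, 4 had a peak in every list (18.2%), a share near the 21.3% of all genes. Among those with any peak it was 4 of 14, a share below the same 47.6%. The 4 were LEMD3, HMGA2, CPSF6 and RAB3IP, and MDM2 itself had peaks in 2 lists.

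Marker genes were looked up to check the labelled line. Of 8 rhabdomyosarcoma and myogenic genes 6 had a peak in every list, where 21.3% of all protein-coding genes did, among them MYOD1, MYOG, DES and PAX3. None of 3 leukocyte and none of 3 epithelial markers had a peak in any list. Of all 20046 protein-coding genes only 8996 had a peak in at least 1 list, so absence among so few markers says little. Of 2 endothelial markers, PECAM1 had peaks in 2 lists and CDH5 in none. Of the nuclear RNAs, NEAT1 had peaks in 2 lists and MALAT1 in none.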

How the data were processed

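The authors deposited 1 peak list for each of 3 DDX5_IP samples, and the 3 INPUT samples enter no comparison. Per the submitters' processing notes, reads were handled on GRCh38 (hg38) with MACS2 2.2.7.1, STAR 2.6.1d, SAMtools 1.10, cutadapt 1.11, FastQC 0.11.8 and bcl2fastq 2.20. The parameters and the control of the peak calls are not given in the sources used here, and libraries were unstranded per the labels' protocols. In the deposited lists the fold enrichment is a ratio, p-values and q-values are on the −log10 scale, and the deposited score was not used. Sequencing depth is unknown, and no counting interval is given.

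An interval with several summits counted once, at its summit of highest −log10 q. Where transcripts differ, coding sequence took precedence over UTRs, UTRs over other exons and exons over introns. Peaks sharing at least 1 bp were merged into regions. Log2 ratios had 0.5 added to counts. The locus was set against 1 Mb on each side by the exact sign-flip permutation test (two-sided) over lists, adjusted by Benjamini-Hochberg, and the script was tested on simulated data. Every gene with a peak in every list is named. Full values by list go to the 12 highest by mean percentile of −log10 q and to a fixed list that includes GLI1, CDK4 and LRP1. The members and lists were chosen with earlier results of these data known. Python 3.11.15, pandas 2.3.3, pysam 0.24.0 and samtools 1.23.1 were used. Alternatives were stricter thresholds, equal list lengths, other overlaps, other flanks, other ways of counting, each list left out, and the locus without MBD6 or LRP1. A few items, among them 1 summit sequence, are not reported here.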

Additional observations from a re-analysis of the deposited data

How the results depend on the processing

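Of 75 alternative values of the main results, 64 kept the direction of the mean contrast or, for counts and means, stayed within 1.5 times or 1 SD. None reversed. The mean number of peaks in the locus was 139 at q under 1e-05, 31.3 at 4-fold or more, 350.0 with every summit counted and 154 without LRP1, which was added once the data had been seen. Regions found in every list numbered 47 at q under 1e-05, 6 at 4-fold or more, 62 without peaks whose fold and p recur in the list, 54 with a reciprocal overlap of at least 50%, 57 with summits within 100 bp and 64 without LRP1. Genes with a peak in every list numbered 5 at 4-fold or more. With each list left out in turn, these genes numbered 21 to 25, mean peaks ran from 185 to 240 and regions in every remaining list from 109 to 147. Over the same settings the log2 ratio of density was 1.50 to 1.57 and of exonic peaks 0.70 to 0.82, the intronic difference 8.04 to 15.2 points and the difference in recurrence 9.61 to 15.2 points. Over the other alternatives too, the means of these 4 contrasts stayed above 0, density between 0.92 and 2.99. At 4-fold or more, single lists did not all agree in direction for exonic peaks and for recurrence (exact sign-flip p = 0.5 for each). For single genes 79 of 84 alternative best folds were alike, and the other 5, for LRP1, R3HDM2, DCTN2, PIP4K2C and B4GALNT1, came from taking the peak of highest fold in place of highest −log10 q. The causes of the other shifts were not tested. No paired analysis was possible because the INPUT samples had no list here and no 2 groups were compared. With 3 lists no test could pass 0.05, and the unknown depth limits what a count of peaks can show.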
